A study of Mus musculus with 12 samples.

Results

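The caveolins Cav1 and Cav2 and the cavins Cavin1 and Cavin2 encode the coat of caveolae, and their messenger RNA was measured in the lung of control A/J mice on Affymetrix MG_U74Av2 arrays. All probe sets that the platform annotation gives to these 4 symbols were taken, which found 5 of 12422 probe sets. Of the 5, 2 belong to Cavin1 (formerly Ptrf), 1 to Cavin2 (formerly Sdpr) and 2 to Cav1. No probe set is listed for Cav2, which was not analysed here. The 5 probe sets were compared on all 12 arrays, and the probe sets of a gene were set against each other. The genes were chosen on the measured difference between the time points, in which the Cavin1 probe sets disagreed, so that contrast is given below as a description, and no p-value is given for it. In all, 3 of the 8251 genes on the array were measured here.

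Every animal was an A/J mouse from Jackson Labs, an inbred strain prone to lung tumours, and every sample was a saline-injected control. The lungs of 5 samples (AJ1, AJ2, AJ4, LZ2 and LZ3) were taken at 24 to 26 weeks and those of 7 samples (LZ22 to LZ25 and LZ61 to LZ63) at 42 weeks after the injection. The labels give neither sex nor age at injection, and do not state whether each sample is a separate animal, so the p-values speak of the spread among these samples only, which may be technical. The meaning of the prefixes AJ and LZ and of the number ranges is not given either. The arrays fall into 4 title sets (AJ, LZ2 and LZ3, LZ22 to LZ25, LZ61 to LZ63) that coincide with 4 run days, each holding 1 time point, so title set and run day cannot be told apart.

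Caveolae are small flask-shaped pits of the plasma membrane. Caveolins insert into the inner leaflet as a hairpin and form oligomers, and cavins are cytosolic proteins that assemble on them from outside as a second coat layer. Cav1 and Cavin1 are both required for caveolae to form outside striated muscle, whereas Cavin2 is known for shaping the membrane and Cav2 for joining Cav1 in mixed oligomers. In the lung, caveolae are abundant in capillary endothelium and in alveolar type 1 cells.

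The promoter windows are shown because probe sets of 1 gene are compared below and the RefSeq annotation gives Cav1 and Cavin1 more than 1 start. They run from 250 bases before to 50 bases after an annotated start (RefSeq, GRCm38.p6), 5′ to 3′ on the gene's strand. The 2 annotated starts of Cav1 lie 1305 bases apart and those of Cavin1 2 bases apart, so both Cav1 windows and the first Cavin1 window are given. Capitals mark the matches of 3 searched motifs on either strand, the GC box letters GGGCGG or their reverse complement CCGCCC, the CCAAT box letters or their reverse complement ATTGG, and the TATA box letters TATAAA or their reverse complement TTTATA. The windows lie at chr11:100970568-100970867 (minus strand) for Cavin1, chr1:51288876-51289175 (plus strand) for Cavin2, and chr6:17306085-17306384 and chr6:17307390-17307689 (plus strand) for the first and second Cav1 start.
Cavin1 first start: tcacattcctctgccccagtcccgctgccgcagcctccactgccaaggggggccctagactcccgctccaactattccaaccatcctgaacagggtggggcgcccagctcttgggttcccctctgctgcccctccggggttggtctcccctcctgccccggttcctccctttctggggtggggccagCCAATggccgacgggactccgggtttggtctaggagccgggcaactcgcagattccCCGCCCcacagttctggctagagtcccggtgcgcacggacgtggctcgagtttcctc
Cavin2: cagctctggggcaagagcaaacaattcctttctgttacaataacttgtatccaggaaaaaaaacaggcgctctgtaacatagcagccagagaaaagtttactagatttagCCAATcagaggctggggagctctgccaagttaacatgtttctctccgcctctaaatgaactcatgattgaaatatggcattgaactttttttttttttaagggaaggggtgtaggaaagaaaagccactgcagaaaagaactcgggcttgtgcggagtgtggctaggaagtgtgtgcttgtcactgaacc
Cav1 first start: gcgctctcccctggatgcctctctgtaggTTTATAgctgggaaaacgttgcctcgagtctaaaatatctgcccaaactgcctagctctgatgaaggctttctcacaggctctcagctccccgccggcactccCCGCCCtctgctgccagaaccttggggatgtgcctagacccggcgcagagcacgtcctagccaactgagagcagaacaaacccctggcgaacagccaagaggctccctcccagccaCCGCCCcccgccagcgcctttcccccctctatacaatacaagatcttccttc
Cav1 second start: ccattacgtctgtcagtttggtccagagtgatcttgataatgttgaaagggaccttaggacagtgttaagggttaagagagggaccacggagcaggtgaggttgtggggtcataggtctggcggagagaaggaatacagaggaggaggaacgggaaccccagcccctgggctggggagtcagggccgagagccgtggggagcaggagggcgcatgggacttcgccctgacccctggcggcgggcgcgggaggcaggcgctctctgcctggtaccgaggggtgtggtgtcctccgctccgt

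The first Cavin1 window held 1 CCAAT box, 63 bases before the start, and 1 GC box, 7 bases before it. The Cavin2 window held 1 CCAAT box, 140 bases before the start, and no GC box. The first Cav1 window held 2 GC boxes, 118 and 2 bases before the start, and a reverse TATA match 221 bases before it, and the second Cav1 window held none of the 3 motifs. Among 32851 windows of the same length, 35.7% held a GC box, 37.4% a CCAAT box and 13.6% a TATA match. The share of G and C was 66.7% in the Cavin1 window, 43.3% in the Cavin2 window, and 59.3% and 62.3% in the Cav1 windows, against a median of 52.7% over all windows. These matches describe the letters of the windows, and the arrays hold no measure of which start was used.

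Values are MAS5 signals, linear intensities that the authors scaled to a shared level before deposit, with a 2% trimmed mean of 500.3 on every array. The number of arrays limits the precision. Differences are on the log2 scale from limma, fitted over 7453 probe sets with a mean signal above about 108, and 4 of the 5 probe sets were among them. The dimmer Cav1 probe set was below this limit and was not tested. Defining markers of the cells that carry caveolae were present on all arrays, with Ager, the type 1 cell receptor, at 13103 to 22458 and Cdh5, the endothelial cadherin, at 4006 to 6827, whereas the Pecam1 probe set read only 43.1 to 185.9. On LZ63 skeletal muscle markers stood apart, with a summed signal over 15 genes of 74657 against 1420 to 2910.0 on the other 11 arrays, and squamous and cartilage markers, over 11 genes, with 29016 against 434 to 1026. LZ63 also had the highest cardiac muscle sum (53090 over 13 genes) and smooth muscle sum (29301 over 11 genes).

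Cavin1 was read by a brighter and a dimmer probe set. The brighter probe set read 2844, 3218 and 3239 on the AJ arrays and 2718 and 2334 on LZ2 and LZ3. It read 3107, 2512, 3105 and 2572 on LZ22 to LZ25, and 3283, 3570 and 2872 on LZ61 to LZ63. The time points overlapped over most of their range, and the highest array was LZ62 and the lowest LZ3. The means were 2870 ± 377 (SD, n = 5) at 24 to 26 weeks and 3003 ± 380 (SD, n = 7) at 42 weeks, a log2 difference of 0.07 with a standard error of 0.11.

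The dimmer Cavin1 probe set read 598.3, 748.1 and 803.3 on the AJ arrays and 889.5 and 770.2 on LZ2 and LZ3. It read 1210.1, 1333, 1264 and 1090.0 on LZ22 to LZ25, and 1381, 1286 and 1191 on LZ61 to LZ63. All 42-week arrays were above all earlier arrays, as for 0.322% of the tested probe sets, and the nearest were LZ25 and LZ2. The means were 762 ± 106 (SD, n = 5) and 1251 ± 96.7 (SD, n = 7), a log2 difference of 0.72 (1.65-fold, standard error 0.11, 95% interval 0.50 to 0.95). By title set the order was AJ (717 ± 106, SD, n = 3), LZ2 and LZ3 (830 ± 84.4, SD, n = 2), LZ22 to LZ25 (1224 ± 102, SD, n = 4) and LZ61 to LZ63 (1286 ± 94.95, SD, n = 3). Neighbouring sets of the same time point overlapped in this order.

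In the contrast of time points 1 of the 4 tested probe sets, the dimmer one of Cavin1, was past 5% false discovery, where 0.0805% of all 7453 were. This contrast chose the genes, so nothing is read from the count. The difference of the dimmer probe set stayed between 0.59 and 0.81 on the log2 scale under all 25 other settings run. These settings refit the arrays that chose the genes, so they describe the difference and do not test it. It was no longer past the threshold without LZ22, LZ24 and LZ63, with LZ-titled arrays only, with LZ61 to LZ63 as the only 42-week arrays, and with run day as a random block. As each run day held 1 time point, no value within a day can be had.

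**Figure D1:**
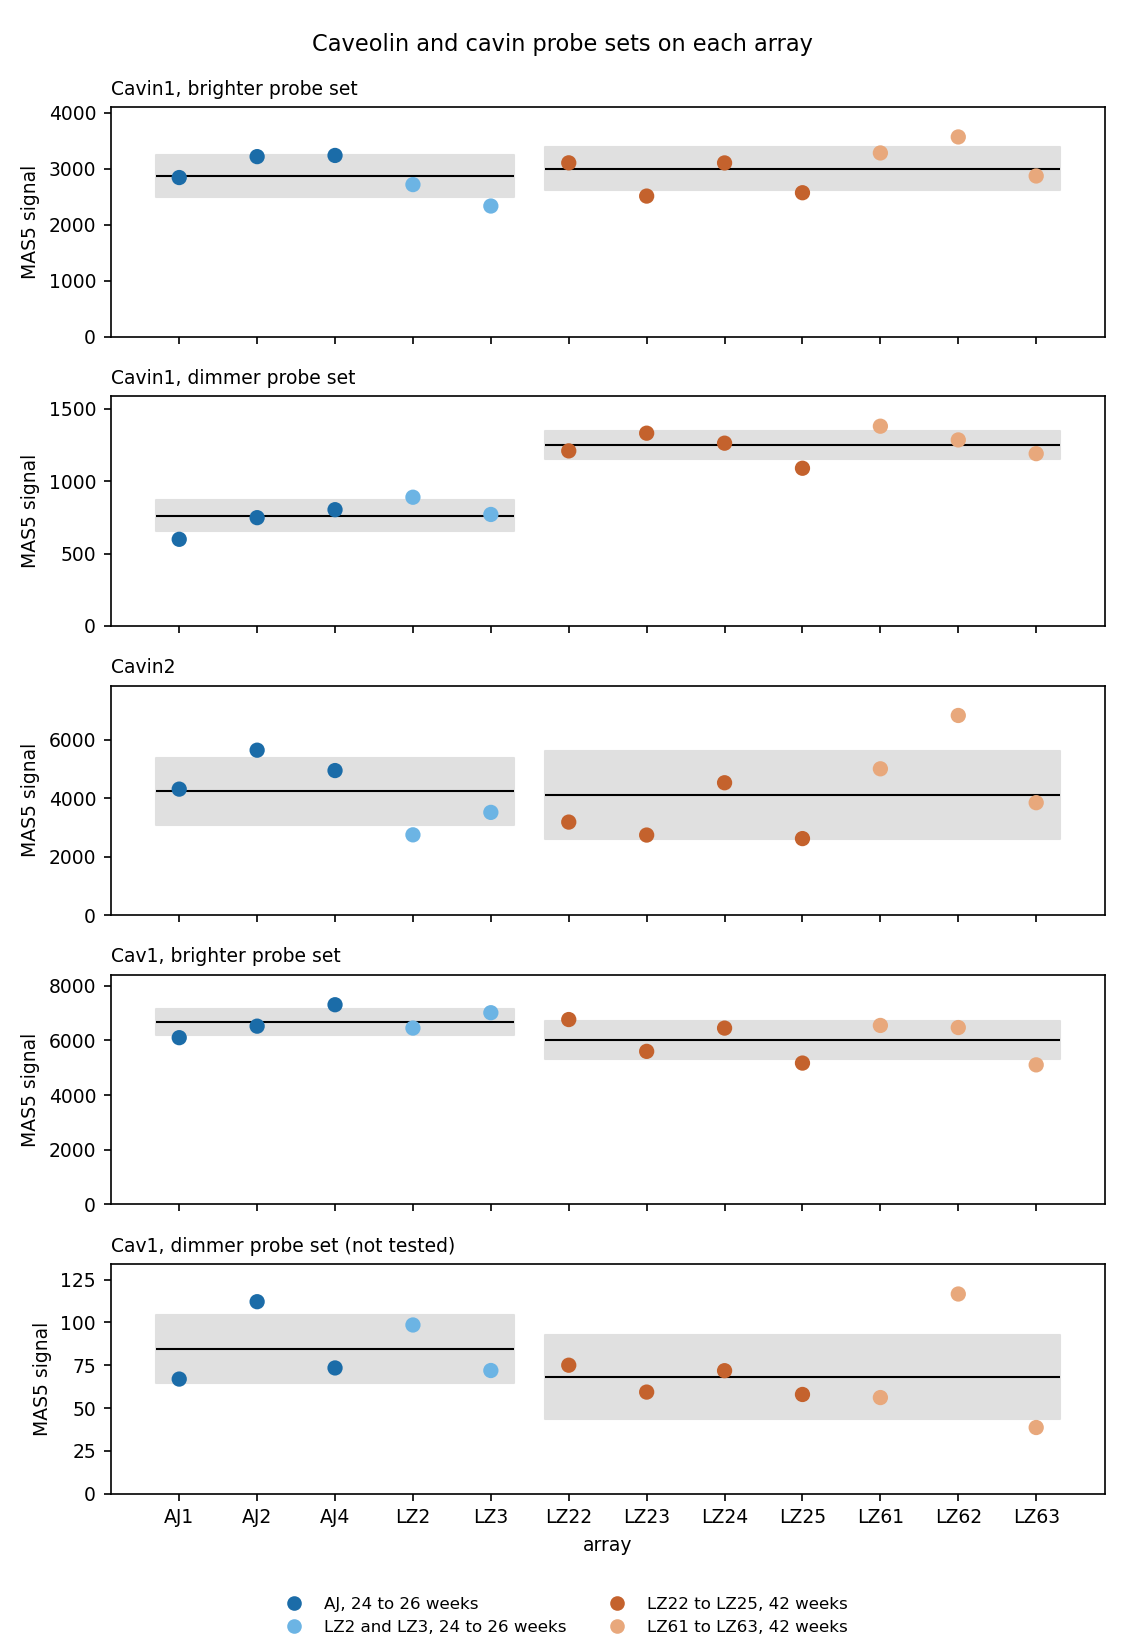
MAS5 signal (linear axis from 0) of each caveolin and cavin probe set on each of the 12 arrays, 1 panel a probe set; lines are means of the 5 arrays at 24 to 26 weeks and the 7 at 42 weeks, grey bands 1 SD. The groups are separate for the dimmer Cavin1 probe set (598.3 to 889.5 against 1090.0 to 1381) and overlap in the other 4 panels.

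The probe sets of Cavin1 were then set against each other on each array as the ratio of the dimmer to the brighter signal. The ratio was 0.210, 0.232 and 0.248 on the AJ arrays and 0.327 and 0.330 on LZ2 and LZ3. It was 0.390, 0.530, 0.407 and 0.424 on LZ22 to LZ25, and 0.421, 0.360 and 0.415 on LZ61 to LZ63. All 42-week arrays were above all earlier arrays, as for 0.73% of 1233 within-gene pairs, and LZ2 and LZ3 were above the AJ arrays, as for 14.9% of the pairs. The log2 ratio changed by 0.66 between the time points (1.58-fold, standard error 0.15, 95% interval 0.33 to 0.98), the 73rd largest change of the 1233 pairs, which came from 893 genes, whose median absolute change was 0.19. A ratio of this kind shows that the probe sets changed unequally, not which of them tracks the Cavin1 transcript.

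The same ratio was tested where the contrast had not chosen the genes. Between the AJ arrays and LZ2 and LZ3 at 24 to 26 weeks the mean ratio was 0.230 ± 0.0189 (SD, n = 3) against 0.329 ± 0.00187 (SD, n = 2), with no overlap. The change of -0.52 on the log2 scale (standard error 0.18, 95% interval -0.91 to -0.12) did not pass the test over all pairs (limma, adjusted p = 0.125), where 3.08% of pairs passed. At 42 weeks the ratio was 0.398 ± 0.0333 (SD, n = 3) on LZ61 to LZ63 and 0.438 ± 0.0634 (SD, n = 4) on LZ22 to LZ25. That change, -0.13 with a 95% interval of -0.46 to 0.20, did not pass either (limma, adjusted p = 0.718), and 0.0811% of pairs did.

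**Figure D2:**
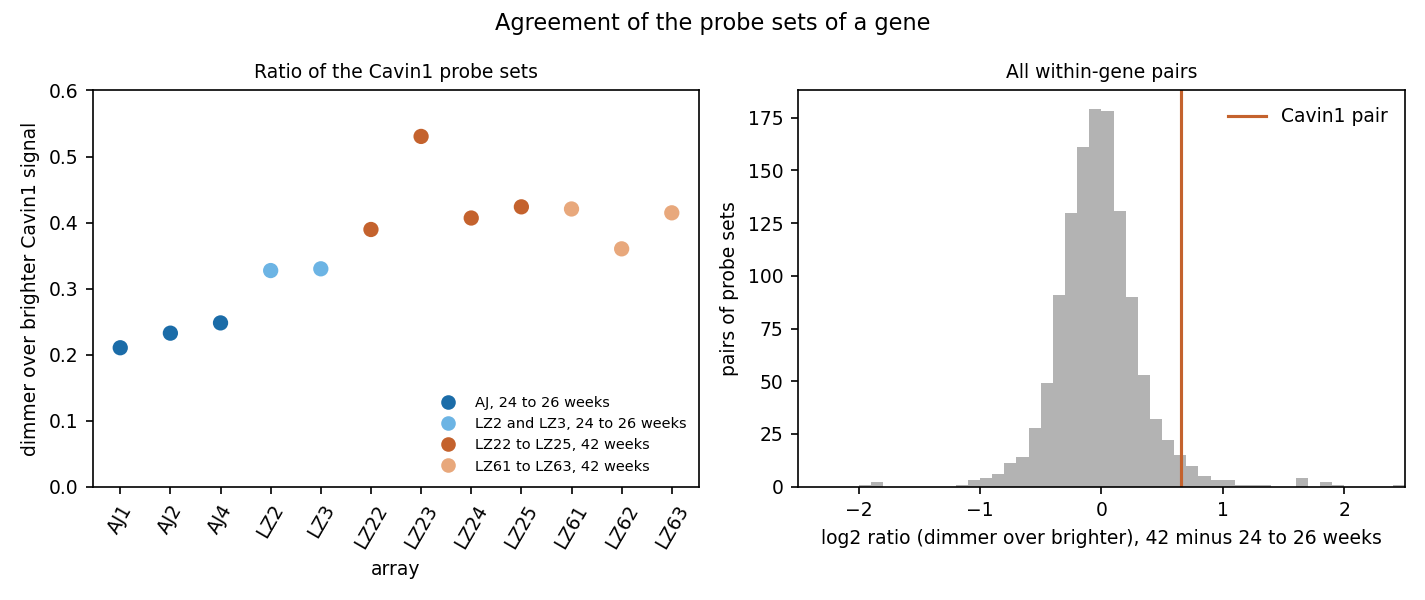
Left, ratio of the dimmer to the brighter Cavin1 signal (linear axis from 0) on each of the 12 arrays, coloured by title set; right, histogram of the log2 change of that ratio between time points for all 1233 within-gene probe set pairs, with the Cavin1 pair as a line at 0.66. The ratio is 0.210 to 0.330 at 24 to 26 weeks and 0.360 to 0.530 at 42 weeks.

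Cav1, the caveolin that forms the inner coat, was among the steadier transcripts in its brighter probe set. It read 6099.5, 6521 and 7305 on the AJ arrays and 6452 and 7013 on LZ2 and LZ3. It read 6763, 5598 and 6449.7 on LZ22, LZ23 and LZ24 and 5169.7 on LZ25. It read 6547, 6471 and 5104 on LZ61 to LZ63. The groups overlapped, with the lowest readings on LZ63 and LZ25 and the highest on AJ4. The SD over the 12 arrays was 0.16 on the log2 scale, and 11.8% of the tested probe sets had a smaller one, the median being 0.26.

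Between the time points the brighter Cav1 probe set read 6678 ± 479 (SD, n = 5) and 6015 ± 702 (SD, n = 7), a log2 difference of -0.16 (standard error 0.10, 95% interval -0.37 to 0.05). The dimmer Cav1 probe set read 66.9 to 112.1 at 24 to 26 weeks and 38.6 to 116.6 at 42 weeks, with means of 84.6 ± 19.7 (SD, n = 5) and 67.9 ± 24.5 (SD, n = 7). Its highest and lowest arrays, LZ62 and LZ63, were both at 42 weeks and of the same title set. Over the 12 arrays the Cav1 probe sets had a Pearson r of 0.59 (permutation p = 0.0409, adjusted p = 0.204 over 10 pairs of probe sets) and a Spearman rho of 0.52 (adjusted permutation p = 0.372). Without the 2 arrays farthest from the median of the brighter probe set r was 0.19. Leaving out extreme arrays narrows the range, which can itself lower r. With the mean of each run day removed r was 0.50 (exact permutation p = 0.256, adjusted p = 0.320).

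Cavin2, which shapes the caveolar membrane, varied far more between arrays than the brighter probe sets of Cav1 and Cavin1. Its probe set read 4309, 5642 and 4945 on the AJ arrays and 2745 and 3514 on LZ2 and LZ3. It read 3181, 2738, 4528 and 2617 on LZ22 to LZ25, and 5005, 6830.1 and 3845 on LZ61 to LZ63. High and low arrays occurred at both time points, with LZ62 highest and LZ25 lowest. The SD over the 12 arrays was 0.45 on the log2 scale, and 87.4% of tested probe sets had a smaller one. The dimmer Cav1 probe set, below the limit for testing, also had an SD of 0.45.

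The mean Cavin2 signal was 4231 ± 1143 (SD, n = 5) at 24 to 26 weeks and 4106 ± 1496 (SD, n = 7) at 42 weeks, a log2 difference of -0.07 with a 95% interval of -0.60 to 0.45. Other settings moved this difference between -0.38, with array weights, and 0.33, with LZ-titled arrays only. The suffix of this probe set, i, marks in this array's design a set with fewer probes than the full number.

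The title sets within a time point gave 2 contrasts that had not chosen the genes. At 24 to 26 weeks Cavin2 read 4965 ± 667 (SD, n = 3) on the AJ arrays and 3129 ± 544 (SD, n = 2) on LZ2 and LZ3, with no overlap. The log2 difference of 0.67 (1.59-fold, standard error 0.26, 95% interval 0.11 to 1.23) did not pass the test over all probe sets (limma, adjusted p = 0.191). Of all probe sets 22.9% were higher on every AJ array than on LZ2 and LZ3, and 7.004% had a larger difference in either direction.

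The call for Cavin2 between the AJ arrays and LZ2 and LZ3 depended on the fit. With array weights the difference was 0.77 (limma, adjusted p = 0.0272), and it passed at 0.67 without LZ22, LZ24 and LZ63 (limma, adjusted p = 0.0430) and with only the arrays at 24 to 26 weeks (limma, adjusted p = 0.0470).

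At 42 weeks Cavin2 read 5227 ± 1505 (SD, n = 3) on LZ61 to LZ63 and 3266 ± 876 (SD, n = 4) on LZ22 to LZ25, and the sets overlapped. The log2 difference of 0.67 (1.60-fold, standard error 0.22, 95% interval 0.21 to 1.14) did not pass (limma, adjusted p = 0.118). It was 0.88 without LZ63 (limma, adjusted p = 0.0746) and 0.46 without LZ62, the highest array (limma, adjusted p = 0.257).

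The brighter Cavin1 probe set was also higher on every AJ array (3100.2 ± 222, SD, n = 3) than on LZ2 and LZ3 (2526 ± 271, SD, n = 2), as were 22.9% of all probe sets. Its log2 difference of 0.30, with a 95% interval of -0.01 to 0.60, did not pass (limma, adjusted p = 0.296), and it was 0.19 without LZ3. At 42 weeks it read 3242 ± 351 (SD, n = 3) on LZ61 to LZ63 and 2824 ± 327 (SD, n = 4) on LZ22 to LZ25, with a log2 difference of 0.20 between -0.06 and 0.46 at 95% confidence (limma, adjusted p = 0.367), and of 0.13 without LZ62.

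The dimmer Cavin1 probe set differed by -0.22 between the AJ arrays and LZ2 and LZ3, 95% interval -0.54 to 0.11 (limma, adjusted p = 0.489), and by -0.0945 without AJ1 and -0.12 without LZ2. It differed by 0.07 at 42 weeks, 95% interval -0.20 to 0.34 (limma, adjusted p = 0.793), and by 0.0179 to 0.13 with 1 array left out. The brighter Cav1 probe set differed by -0.02 at 24 to 26 weeks, 95% interval -0.34 to 0.29, and by 0.01 at 42 weeks, 95% interval -0.25 to 0.27 (limma, adjusted p = 0.964 and 0.976).

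In both contrasts 0 of the 4 tested probe sets passed 5% false discovery in limma, where 2.5% of all probe sets passed at 24 to 26 weeks and 1.5% at 42 weeks. At an unadjusted p under 0.05 the count was 1 of 4 in each, Cavin2, where 17.9% and 19.8% of all probe sets were. The intervals for the brighter Cav1 probe set exclude 0.67, the difference estimated for Cavin2 in both contrasts. They overlap the intervals for Cavin2, and a difference between the genes was not tested.

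**Figure D3:**
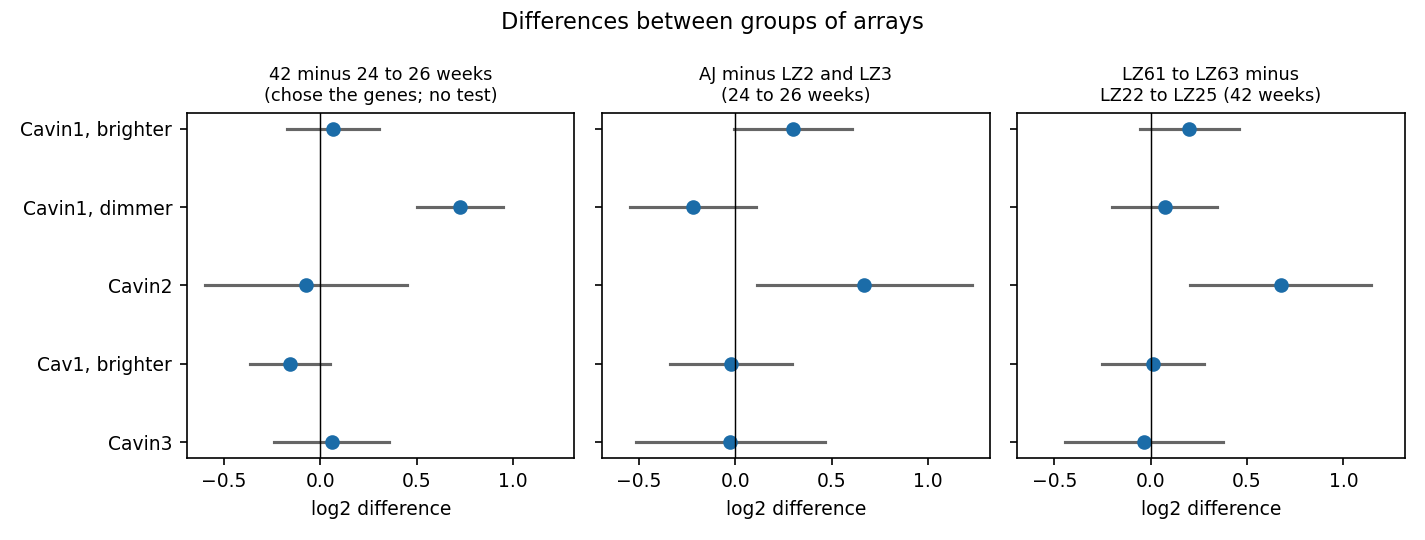
Log2 difference (points) with 95% interval (lines) of each tested caveolin and cavin probe set in 3 contrasts, from limma over 12 arrays; the left panel is the contrast that chose the genes. Cavin2 lies at 0.67 in both title set contrasts and at -0.07 between time points, and the dimmer Cavin1 probe set lies at 0.72 between time points.

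Cavin2 and the brighter Cavin1 probe set varied together over the 12 arrays, with a Pearson r of 0.81 (permutation p = 0.00187, adjusted p = 0.0187 over 10 pairs of probe sets) and a Spearman rho of 0.83 (permutation p = 0.00137, adjusted p = 0.0137). Without the 2 arrays farthest from the median of Cavin1 r was 0.85. Within run days, after the mean of each day was removed, r was 0.68 (exact permutation p = 0.0671, adjusted p = 0.134), so the relation did not pass there. With the day means kept it was the 1 pair that passed, among 6 computed over all arrays and 4, those with the dimmer Cavin1 probe set, over the arrays at 42 weeks. Within run days no pair passed, and other pairs had a higher r. It was 0.76 for the brighter Cavin1 and dimmer Cav1 probe sets (exact permutation p = 0.00868, adjusted p = 0.0868). For Cavin2 it was 0.72 with the brighter and 0.69 with the dimmer Cav1 probe set. The pairs not named here or in the next paragraph as higher had an r of 0.52 or lower.

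The brighter Cavin1 and Cav1 probe sets had a Pearson r of 0.36 over the 12 arrays (adjusted permutation p = 0.321) and 0.76 within run days (exact permutation p = 0.0376, adjusted p = 0.131). The Cavin1 probe sets fall apart by time point, so their relation was computed over the 7 arrays at 42 weeks, where r was 0.41 (exact permutation p = 0.359, adjusted p = 0.399) and rho was 0.36 (adjusted p = 0.494). Without the 2 farthest arrays r was 0.64. Over all 12 arrays, with the mean of each run day removed, it was 0.52 (exact permutation p = 0.108, adjusted p = 0.166). For the other 6 pairs the adjusted p of the pooled r was 0.321 or higher. All signals of an array share its RNA and its scaling.

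**Figure D4:**
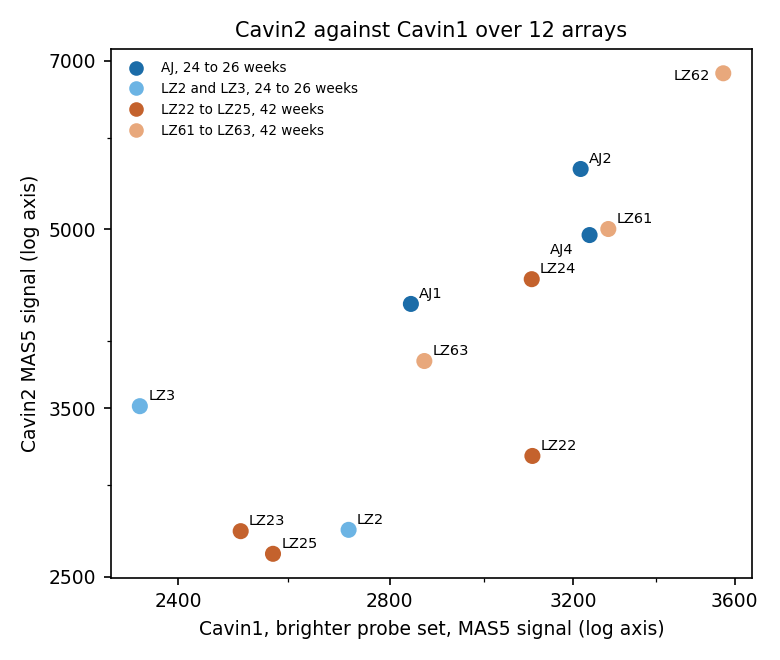
MAS5 signal of Cavin2 against that of the brighter Cavin1 probe set on each of the 12 arrays (both axes logarithmic), coloured by title set. LZ62 is highest in both, at 6830.1 and 3570, and Pearson r on the log2 scale is 0.81.

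The transcripts whose pattern over the 12 arrays was most like each tested probe set were sought among 6769 tested probe sets of other named genes. For the brighter Cavin1 probe set these were B3gnt2, Plcg1, Capn5, Ccnc and Mcm3, with Pearson r from 0.95 down to 0.87, and from 0.84 to 0.92 within run days. For the brighter Cav1 probe set they were Pitpnc1, Rag1, Stmn2, Cdr2l and Cacnb2 (r from 0.91 to 0.84, and 0.86 to 0.93 within run days). For Cavin2 they were Zmynd8, H2-Q10, Baz2a, Rpp21 and Yju2 (r from 0.91 to 0.89, and 0.76 to 0.87 within run days). For the dimmer Cavin1 probe set they were Gas6, Dok2, Bsg, Agap3 and Ift88 (r from 0.90 to 0.86). Within run days r was 0.65 for Gas6, 0.54 for Dok2, 0.60 for Ift88, 0.16 for Bsg and 0.11 for Agap3. The highest of many correlations over 12 arrays are high by selection, and no test was made of them.

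The remaining caveolin and cavin on the array, Cav3 and Cavin3, are not among the 4 genes and were named after their values were seen. Cavin3, a further cavin of the outer coat, read 670.7, 681.5 and 787.9 on the AJ arrays and 729.2 and 720.4 on LZ2 and LZ3. It read 550.2 to 1002.4 at 42 weeks, with a median of 801.1. The means were 718 ± 46.3 (SD, n = 5) and 762 ± 162 (SD, n = 7), and its differences were 0.06 between the time points, -0.03 between the AJ arrays and LZ2 and LZ3 (limma, adjusted p = 0.973) and -0.03 at 42 weeks (limma, adjusted p = 0.941).

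Cav3, the caveolin of striated muscle, has 2 probe sets, both below the limit for testing. The first read 60.1 to 78.7 at 24 to 26 weeks, 14.6 to 94.1 on LZ22 to LZ25, 68.2 on LZ61, 49.4 on LZ62 and 590.9 on LZ63. The second read 36.4 to 138.1 at 24 to 26 weeks, 40.6 to 94.5 on LZ22 to LZ25, 116.8 on LZ61, 124.6 on LZ62 and 478.2 on LZ63. Both Cav3 probe sets were high on LZ63 only among the 12 arrays, where Acta1, the skeletal muscle actin, read 20112 and the other muscle sums and the squamous and cartilage sum were highest too. LZ63 also had the lowest Cav1 signal of its title set in both Cav1 probe sets, and its summed endothelial signal, over 19 genes, was the lowest of the 12 arrays at 46623. The part of these markers in the Cav1 and Cavin2 values of LZ63 was not tested.

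**Figure D5:**
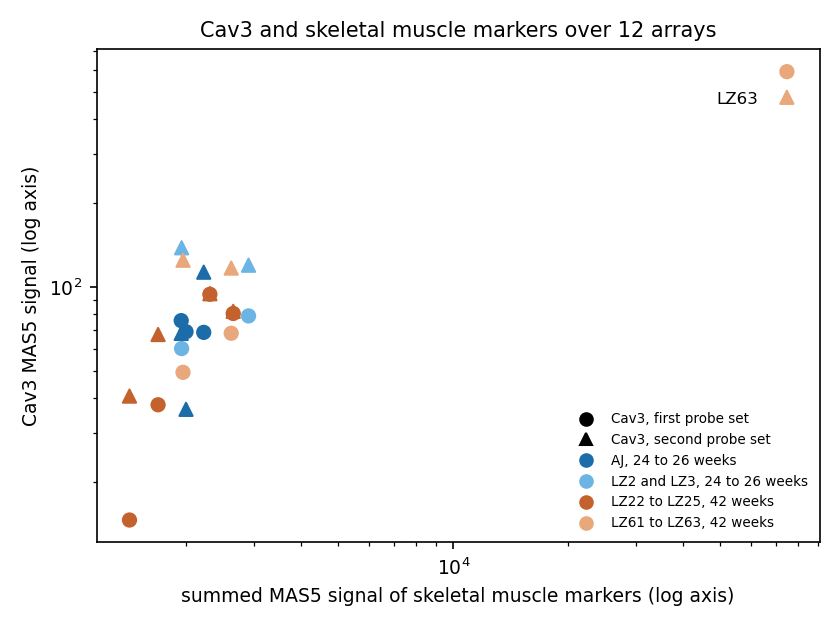
MAS5 signal of the Cav3 probe sets (circles the first, triangles the second) against the summed MAS5 signal of 15 skeletal muscle markers on each of the 12 arrays (both axes logarithmic), coloured by title set. LZ63 lies apart at a summed signal of 74657 with Cav3 at 590.9 and 478.2; no other array exceeds 138.1.

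Of the partners of the coat and of its neck, 18 genes were listed, 12 had a probe set and 9 were tested. The tested genes include the flotillins Flot1 and Flot2, the ATPase Ehd1, the dynamins that cut membrane necks, and Emp2, a tetraspan protein abundant in type 1 cells. In limma 0 of the 9 were higher and 0 lower at 5% false discovery between the time points and in each title set contrast. At an unadjusted p under 0.05 the counts were 0 between the time points, 2 at 24 to 26 weeks and 1 at 42 weeks. Over all probe sets 14.7%, 17.9% and 19.8% were under that p. Their median log2 difference was 0.04 between time points, 0.08 between the AJ arrays and LZ2 and LZ3, and 0.05 at 42 weeks, against -0.04, 0.04 and -0.01 over all tested probe sets. The members with the smallest p at 24 to 26 weeks were Emp2, at 7129.8 ± 209 (SD, n = 3) on the AJ arrays and 11265 ± 686 (SD, n = 2) on LZ2 and LZ3 (limma, adjusted p = 0.0591), and Dnm1, at 622 ± 49.96 (SD, n = 3) and 815 ± 96.2 (SD, n = 2) (limma, adjusted p = 0.230). At 42 weeks they were Ehd1, at 691 ± 114 (SD, n = 3) on LZ61 to LZ63 and 547 ± 43.6 (SD, n = 4) on LZ22 to LZ25 (limma, adjusted p = 0.223), and Emp2, at 7909.9 ± 2051 (SD, n = 3) and 9549 ± 582 (SD, n = 4) (limma, adjusted p = 0.256).

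Of 30 receptors, enzymes and transporters reported in caveolae, 23 had a probe set and 16 were tested. Between the time points 0 of the 16 passed in limma (6 at an unadjusted p under 0.05, where 14.7% of all probe sets were), with a median of -0.13. Between the AJ arrays and LZ2 and LZ3 0 of the 16 passed (4 at an unadjusted p under 0.05, where 17.9% of all probe sets were), with a median of 0.09. The members with the smallest p there were the integrin chain Itgb1, at 7229 ± 798 (SD, n = 3) and 10064 ± 88.5 (SD, n = 2) (limma, adjusted p = 0.0607), and Kdr, the main endothelial receptor for VEGF, at 2026 ± 455 (SD, n = 3) and 1214 ± 112 (SD, n = 2) (limma, adjusted p = 0.122). A dimmer Itgb1 probe set went the other way, at 2110.8, 2370.4 and 2266.7 on the AJ arrays and 1783.4 and 1788.6 on LZ2 and LZ3.

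At 42 weeks 1 of the 16 was higher on LZ61 to LZ63 and 15 did not pass, where 0.416% of all probe sets were higher, and the median was 0.14. The 1 was Igf1r, the receptor of insulin-like growth factor 1, at 1667 ± 162 (SD, n = 3) against 1000.05 ± 178 (SD, n = 4), a log2 difference of 0.75 with a standard error of 0.16 (limma, adjusted p = 0.0401). Without LZ63 0 of the 16 were higher (5 at an unadjusted p under 0.05 in either direction), and no probe set at all passed in this contrast when AJ2, LZ22, LZ23 or LZ25 was left out or when only the 42-week arrays were fitted.

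Markers of the cells that carry caveolae were counted beside these values. Of 6 tested type 1 cell markers 0 passed in limma between the time points, between the AJ arrays and LZ2 and LZ3, or at 42 weeks (2, 3 and 2 at an unadjusted p under 0.05), with medians of 0.05, -0.09 and -0.21. Of 19 endothelial markers 0 passed in these contrasts (4 in each at an unadjusted p under 0.05), with medians of -0.09, -0.13 and -0.07. Over all probe sets 14.7%, 17.9% and 19.8% were under that p in the 3 contrasts. Between the time points 3 of the 6 type 1 cell markers had a positive difference. Of these Pdpn did not overlap, at 1288 to 1449 on the earlier arrays and 1603 to 2516 at 42 weeks, as for 0.322% of tested probe sets. Without LZ63 the medians at 42 weeks were -0.06 for the type 1 cell and 0.13 for the endothelial markers. The summed type 1 cell signal over 7 genes was 24679 to 25259 on the AJ arrays, 28351 to 32861 on LZ2 and LZ3, 30364 to 33598 on LZ22 to LZ25 and 22104 to 34341 on LZ61 to LZ63. The summed endothelial signal was 60390.3 to 66289 on the AJ arrays, 68068 to 77271 on LZ2 and LZ3, 62599.5 to 69128 on LZ22 to LZ25 and 46623 to 76699 on LZ61 to LZ63. At 24 to 26 weeks Cavin2 and the brighter Cavin1 probe set were thus higher in the title set where both sums were lower, the AJ arrays. Among the AJ arrays, Cavin2 and both sums were highest on AJ2. At 42 weeks LZ62 was highest in Cavin2 (6830.1), in the brighter Cavin1 probe set (3570) and in both sums (34341 and 76699). The sums weigh bright genes most, and the single markers were divided. Of the tested markers, 3 of 6 type 1 cell and 8 of 19 endothelial ones had a positive difference for the AJ arrays. The part of these cells in the Cavin1 and Cavin2 differences was not tested. In bulk tissue, fewer cells of a type and less RNA per cell cannot be told apart.

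Markers of other cell types that passed were few. Of 7 type 2 cell markers 1 was lower on the AJ arrays, the surfactant protein Sftpc, at 19426 ± 1406 (SD, n = 3) against 35304 ± 6561 (SD, n = 2) on LZ2 and LZ3 (limma, adjusted p = 0.0154). Of 4 club and ciliated cell markers 2 were lower there, the club cell genes Scgb1a1 (adjusted p = 0.0150) and Cyp2f2 (adjusted p = 0.0459), where 1.37% of all probe sets were lower. No probe set passed in this contrast when LZ3 was left out. Of 9 macrophage markers 1 was lower on LZ61 to LZ63, Cd68, at 758 ± 269 (SD, n = 3) against 1438 ± 202 (SD, n = 4) (limma, adjusted p = 0.0451), where 1.09% of all probe sets were lower. At an unadjusted p under 0.05 the count was 7 of the 9, where 19.8% of all probe sets were. Their median was -0.54, and 1 of the 9 had a positive difference. Without LZ63 0 of the 9 passed (6 at an unadjusted p under 0.05), with a median of -0.39. In the same contrast with LZ63 kept, 0 of 10 smooth muscle, 0 of 6 adipose, 0 of 7 skeletal muscle and 0 of 9 cardiac muscle markers passed. Their medians were 0.55, 0.63, 2.30 and 2.57 (5, 2, 2 and 0 at an unadjusted p under 0.05). Without LZ63 these medians were 0.20, 0.50, 0.72 and 1.98 (4, 1, 1 and 0 at an unadjusted p under 0.05), and the summed skeletal muscle signal was 2622 on LZ61 and 1961 on LZ62, against 1420 to 2653 on LZ22 to LZ25. The part of these cell types in the caveolin and cavin values was not tested.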

How the data were processed

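Lung RNA was extracted with Trizol, labelled with biotin and hybridised to 12 arrays, per the labels' protocols. The authors deposited linear intensity values from MAS5, per the submitters' processing notes; for its version, scaling target and build, the sources used here give nothing. Trimmed means of the deposited intensities differed by 0.00897%, so no further scaling was done. Removing 66 controls left 12422 probe sets: 10833 with 1 gene symbol in the platform annotation, 396 with several and 1193 with none. Of the 10833, 10817 matched RefSeq.

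Values were log2-transformed without a pseudocount. Probe sets under the 40th percentile of mean log2 value were left out, leaving 7453. The fits were by limma 3.58.1 in R 4.3.3 (lmFit, eBayes with trend and robust, statmod 1.5.0; without trend for ratios of probe set pairs), two-sided, Benjamini-Hochberg adjusted over all probe sets or pairs at 5% false discovery. The title sets were fitted together as 4 groups. Correlations were computed with SciPy 1.17.1, and their p-values came from separately coded permutations, exact for 7 arrays and within run days.

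The members, lists and tests were chosen with earlier results of these data known. Named were all members, up to 4 passing genes per list and contrast or up to 2 with the smallest p in the title set contrasts, and the 5 most alike transcripts. Pdpn was named after its values were seen. The brightest tested probe set stood for each listed gene; a summed marker signal takes the brightest probe set per gene on the array. The fits were tested on simulated data. Alternatives were other normalizations, filters, a pseudocount of 28.7, array weights, plain eBayes, run day as a random block, fits on fewer arrays, 1 array left out at a time and an exact permutation test.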

Additional observations from a re-analysis of the deposited data

Results flagged for a closer look

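Among 27 groups of 4 to 7 values examined for an array far from the rest, 3 held one, and chance gives about 1 in 20. The groups share arrays, so they are not independent. Both Cav3 probe sets were far higher on LZ63 than on the other arrays at 42 weeks, at 590.9 (gap 0.86 of the range, n = 7) and 478.2 (gap 0.81 of the range, n = 7). LZ63 was also the array with the highest summed skeletal muscle signal, 74657. The ratio of the Cavin1 probe sets was highest on LZ23, at 0.530 (gap 0.63 of the range of the 7 arrays at 42 weeks), where the dimmer probe set read 1333 and the brighter one 2512, its lowest at that time point.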

How the results depend on the processing

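Between the time points 1 caveolin or cavin probe set passed, and 0 passed without LZ22, LZ24 and LZ63, with run day as a random block (consensus correlation 0.227), with LZ-titled arrays only, with LZ61 to LZ63 as the only 42-week arrays and in an exact permutation test (792 splits, smallest p 0.00126, 0 calls over all 7453 probe sets and 1031 at an unadjusted p under 0.05). These subsets hold fewer arrays and the permutation test cannot give a smaller p, but why the call was lost was not tested in any of these settings. With the AJ arrays as the only earlier ones, also a subset, the call was kept, with 441 calls over all probe sets. With each array left out the count stayed at 1. Between the AJ arrays and LZ2 and LZ3 the count was 0. It was 1 (Cavin2) with array weights, without LZ22, LZ24 and LZ63 and with only the arrays at 24 to 26 weeks. Calls over all probe sets were higher in these settings too, at 776, 381 and 312, and the cause was not tested. Between the time points the brighter Cavin1 probe set, at 0.07, turned to -0.0469 with array weights, -0.0534 with the AJ arrays as the only earlier ones, -0.0204 with LZ22 to LZ25 as the only later ones and -0.0065 without LZ3. The near-zero differences of the brighter Cav1 probe set also turned direction. At 24 to 26 weeks it was 0.21 with quantile normalization, and -0.0930 to 0.0379 with 1 array left out. At 42 weeks it was -0.00053 with quantile normalization and -0.0683 with equal medians, and -0.0585 to 0.127 with 1 array left out. The dimmer Cavin1 probe set at 42 weeks turned to -0.0059 with equal medians. The Cavin1 ratio kept its direction in all 15 alternatives of each contrast. Over all probe sets the calls between time points were 6, and 4 to 38 with 1 array left out (4 without AJ2, 38 without LZ2), 550 with array weights. Between the AJ arrays and LZ2 and LZ3 they were 186, and 0 without LZ3 to 374 without LZ63, 776 with array weights. At 42 weeks they were 112, and 0 without AJ2, LZ22, LZ23 or LZ25 to 84 without LZ62, 292 with equal medians and 0 with only the 42-week arrays. For within-gene pairs they were 38 at 24 to 26 weeks, and 0 to 46 with 1 array left out and 58 with the 60th percentile filter, and 1 at 42 weeks, and 0 to 3 with 1 array left out. Leaving out LZ2 or LZ3 leaves a lone array assumed to vary like the rest. The number of arrays and low MAS5 signals limit what could be seen.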
